A study of Mus musculus with 86 samples.

Results

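In mouse back skin, 107 of 20175 probes (0.53%) were chosen because they were abundant in the keratin-positive tissue of the deep dermis at 0 h and several times scarcer in that of the epidermis. Counts were summed over the tissue areas of each mouse, compartment and time and scaled to a common total (CPM). A probe was kept if its 0 h mean over 3 mice was 100 CPM or more in PanCK deep dermis and at least 3 times that in PanCK epidermis, with a ratio above 1.5 in each mouse. Its 0 h mean in CD45 deep dermis also had to be under 4 times that in CD45 adipose. These values, all from 0 h, chose the probes and are given below as a description.

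The samples came from wild-type female C57BL/6 mice aged 12 to 16 weeks, which were anesthetized with isoflurane and received 1 dose of UVB (500 mJ/cm2, 290 to 320 nm) on the shaved back. Biopsies were taken at 0, 6 and 24 h. Transcripts were counted by GeoMx digital spatial profiling, in which light releases barcodes from probes bound to RNA in chosen areas of a section, called segments. PanCK segments were selected by staining for cytokeratins, which mark epithelial cells, and CD45 segments by staining for a surface protein of leukocytes. The 85 segments fall into 5 compartments, which are PanCK deep dermis, PanCK epidermis, CD45 deep dermis, CD45 epidermis and CD45 adipose. The labels name mice 208, 210 and 219 and 1 scan number for all segments, and every group has 3 mice except CD45 adipose at 6 h, which has 2. Skin without UVB at 6 or 24 h was not analysed here, so the exposure cannot be told apart from time after shaving and anesthesia.

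As background, the surface of the skin is covered by a stratified epidermis, whereas keratin-positive cells found deep in the dermis of hairy skin belong to appendages, chiefly the lower parts of hair follicles. Follicles hold stem cells, the cells that build the hair shaft and its sheaths, and the attached sebaceous glands. UVB is absorbed mostly in the outer layers of the skin, where it damages DNA and starts inflammation. Nothing in the deposited counts says which gene a probe reads, so genes are not named, probe sequences are not shown and the compartments could not be checked against marker genes. Identifiers stand for probes throughout.

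Total counts per segment ranged from 4244 to 256121. The 9 sums of PanCK deep dermis held 58790 to 263625 counts, and those of PanCK epidermis 86613 to 433425. The deepest PanCK deep dermis sums at 6 h and at 24 h were those of mouse 210, with 263625 and 190198 counts. The median count of the 107 probes in PanCK deep dermis was 25, 33 and 9 in mice 208, 210 and 219 at 0 h. It was 9, 36 and 6 at 6 h, and 4, 8 and 4 at 24 h, so that single probes rested on few counts in mice 208 and 219 after UVB.

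At 0 h the 107 probes had means of 100.2 to 2367 CPM in PanCK deep dermis, with a median of 192 CPM, against 7.09 to 711 CPM and a median of 39.7 CPM in PanCK epidermis. The ratio of the means ran from 3.00 to 18.9 with a median of 4.25. Of the 107, 50 reached 200 CPM, 14 reached 500 CPM and 4 reached 1000 CPM in PanCK deep dermis. Among probes that met every other limit, RTS0068776 and RTS0070867 lay just inside the limit on the ratio, at 3.00 and 3.02 times. RTS0080130 and RTS0061306 lay just outside it, at 2.96 and 2.96 times.

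The 4 most abundant probes at 0 h differed in how widely they were spread. RTS0076045 had 2036, 1528 and 3536 CPM in PanCK deep dermis of mice 208, 210 and 219, against 1013, 388 and 732 CPM in PanCK epidermis. It was the most abundant of the 107 in both compartments. RTS0065967 had 1395, 1216 and 2168 CPM in PanCK deep dermis, against 783, 210 and 534 CPM in PanCK epidermis. RTS0066290 had 886, 878 and 1668 CPM in PanCK deep dermis, against 429, 127 and 289 CPM in PanCK epidermis. These 3 probes were thus also well detected in the epidermis of every mouse. RTS0071365 had the largest ratio of the 107, with 1466, 1723 and 917 CPM in PanCK deep dermis and 49.9, 76.1 and 90.9 CPM in PanCK epidermis.

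Not all of the 107 were highest in the deep dermal epithelium. At 0 h, 83 had their highest mean in PanCK deep dermis, 16 in CD45 adipose, 5 in CD45 deep dermis, 3 in CD45 epidermis and 0 in PanCK epidermis. For the 24 probes with a higher mean in a CD45 compartment the data go against a purely epithelial label, and the 107 are therefore called the deep dermal probes here. RTS0064438 was one of these 24. It had 649, 962 and 217 CPM in PanCK deep dermis and 834, 636 and 312 CPM in CD45 adipose, with overlapping ranges. RTS0080335 was another, with 114, 169 and 83.4 CPM in PanCK deep dermis and 648, 299 and 340 CPM in CD45 adipose. Every adipose value of that probe lay above every deep dermal one.

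The deep dermal probes took up less of the RNA in PanCK deep dermis with time. Together they held 3.26, 3.17 and 3.14% of the counts at 0 h in mice 208, 210 and 219, then 2.74, 2.19 and 1.55% at 6 h, and 1.07, 0.657 and 0.713% at 24 h. The ranges of the 3 times did not overlap. The 0 h values chose the probes for being high there and are a description, so only 6 h against 24 h is free of the choice. The means were 3.19% ± 0.065 at 0 h, 2.16% ± 0.59 at 6 h and 0.813% ± 0.22 at 24 h (SD, n = 3 each). Single segments held 2.50 to 3.70% at 0 h, 1.45 to 3.94% at 6 h and 0.63 to 1.08% at 24 h, with 6 segments at each time. All 24 h segments were therefore below all segments of both earlier times, while those of 0 h and 6 h overlapped. A probe's share falls equally when fewer cells that carry its RNA lie in the segment and when each such cell holds less of it, and these cannot be told apart here.

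The other compartments showed smaller shifts. PanCK epidermis had a share of 0.739% ± 0.14 at 0 h, 0.692% ± 0.12 at 6 h, then 0.582% ± 0.11 at 24 h (SD, n = 3 each), with overlapping ranges. CD45 deep dermis had 1.55% ± 0.43, 1.42% ± 0.40 and 0.949% ± 0.20 at the same times (n = 3 each), with every 0 h value above every 24 h one. CD45 epidermis had 1.10% ± 0.14, 0.759% ± 0.13 and 0.690% ± 0.015 (n = 3 each), with every 0 h value above all later ones. CD45 adipose held 1.98% ± 0.19 at 0 h (n = 3), 1.59 and 2.92% in the 2 mice of 6 h, and 1.64% ± 0.69 at 24 h (n = 3), with no separation between times. At 24 h the deep dermal probes held 1.07, 0.657 and 0.713% in PanCK deep dermis, against 2.43, 1.22 and 1.28% in CD45 adipose, so every adipose value lay above every deep dermal one.

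The question of whether the probes still set deep dermis apart from epidermis can be asked at 6 h and 24 h, because the choice used no count from those times. At 6 h most still did. The median level of the 107 in a sum averaged 115 ± 33 CPM in PanCK deep dermis, against 43.1 ± 7.4 CPM in PanCK epidermis (SD, n = 3 each). Of the 107, 77 were above epidermis in each of the 3 mice, 102 were above it in the mean, and 49 had a mean at least 3 times that of epidermis. These counts were not made over all probes. The median ratio of means was 2.73.

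The test at 6 h covered the 58 of the 107 that passed the filter on low counts, and 41 of them were higher in PanCK deep dermis than in PanCK epidermis at an adjusted p under 0.05 while 0 were lower (edgeR quasi-likelihood F test, Benjamini-Hochberg). Over all 1677 probes tested, 6.92% were higher and 7.69% lower by the same rule. The median log2 fold change was 1.54 over the 58, with a range of 0.17 to 3.73, against 0.05 over all tested. Because a filter keeps a probe more readily where it is high, the fit was also run on all 20175 probes. It called 36 of the 107 higher and 0 lower, and 99 of the 107 had a log2 fold change above 0, while 0.55% of all probes were called higher and 0.634% lower. The count rested on mouse 210 and to a lesser degree on mouse 208, since 10 probes were called without mouse 210, 22 without mouse 208 and 43 without mouse 219. Only 2 were called with limma on log2(CPM + 1) averaged over a mouse's segments.

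Some probes stood out at 6 h by the size of the difference. RTS0071365 had 2423, 1202 and 361 CPM in PanCK deep dermis at 6 h, against 98.9, 104 and 99.1 CPM in PanCK epidermis. All its deep dermal values lay above all epidermal ones, and its log2 fold change was 3.29 ± 0.42 (SE, edgeR quasi-likelihood, adjusted p = 3.63e-06). RTS0076045 had 2000, 1825 and 2447 CPM in PanCK deep dermis, against 845, 476 and 554 CPM in PanCK epidermis, a log2 fold change of 1.5 ± 0.24 (edgeR quasi-likelihood, adjusted p = 8.27e-05). RTS0065967 had 1284, 486 and 1417 CPM in PanCK deep dermis and 613, 324 and 420 CPM in PanCK epidermis. Its groups overlapped through mouse 210, and its difference of 0.92 ± 0.35 did not pass (edgeR quasi-likelihood, adjusted p = 0.0786).

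By 24 h few of the probes set the layers apart. Their median level in a sum averaged 50.2 ± 15.4 CPM in PanCK deep dermis and 43.7 ± 3.1 CPM in PanCK epidermis (SD, n = 3 each). Only 24 of the 107 were above epidermis in every mouse, although 64 were above it in the mean. A mean at least 3 times that of epidermis was left for 7, and 14 still reached 100 CPM in PanCK deep dermis. As at 6 h, these counts were not made over all probes. The median ratio of means was 1.25. None of the 107 met all the limits of the choice when these were applied to the 24 h sums, whereas 30 did so in the 6 h sums.

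Among the 32 tested at 24 h, 0 were higher in PanCK deep dermis and 1 was lower (edgeR quasi-likelihood F test, Benjamini-Hochberg), with 5 at an unadjusted p under 0.05. The shares over all 1751 tested probes were 3.94% higher and 8.45% lower, while the unadjusted count was not made over all probes. Over the 32 the median log2 fold change was −0.09 (−1.93 to 1.24), against 0.04 over all tested. Of the 32, 16 belonged to the 24 probes that were highest in a CD45 compartment at 0 h. On all 20175 probes without the filter, 2 of the 107 were higher and 0 lower, against 1.35% and 0.263% of all probes. In that fit 71 of the 107 had a log2 fold change above 0. Their median was 0.35, against −0.16 over all probes. The scaling mattered here: with sums scaled to 5000 scarce probes, 15 of the 32 were called higher and the median turned to 1.28, but the median of all tested probes moved to 1.47 as well. Those scarce probes averaged 20.02 CPM in PanCK deep dermis and 32.9 CPM in PanCK epidermis at 24 h.

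Values of the probes nearest to a difference at 24 h show how uneven they were between mice. RTS0074148 had 1021, 116 and 691 CPM in PanCK deep dermis, against 312, 89.5 and 70.5 CPM in PanCK epidermis. It was above epidermis within every mouse, yet the groups overlapped and its log2 fold change of 1.16 ± 0.44 did not pass (edgeR quasi-likelihood, adjusted p = 0.0708). It was called higher under 3 of 11 alternatives, which were limma on segment means, scaling to the scarce probes and no filter, the last at 2.02 ± 0.47 (edgeR quasi-likelihood, adjusted p = 0.00467). RTS0070872, picked with its values already seen, was the second probe called higher without the filter, with 442, 99.9 and 264 CPM in PanCK deep dermis, against 46.2, 170 and 20.1 CPM in PanCK epidermis. In mouse 210 it was lower in the deep dermis.

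RTS0064438 was low on both sides at 24 h, with 153, 99.9 and 30.5 CPM in PanCK deep dermis, against 23.1, 17.9 and 30.2 CPM in PanCK epidermis. Its difference of 1.24 ± 0.73 did not pass (edgeR quasi-likelihood, adjusted p = 0.251), and it was called under 1 of 11 alternatives, scaling to the scarce probes (edgeR quasi-likelihood, adjusted p = 0.00792). The single probe called lower was RTS0080335, with 51.0, 5.26 and 30.5 CPM in PanCK deep dermis, against 46.2, 80.5 and 30.2 CPM in PanCK epidermis. Only mouse 210 was clearly lower in the deep dermis, where the probe had 1 count, and the call of −1.93 ± 0.65 (edgeR quasi-likelihood, adjusted p = 0.0447) was lost under 8 of 11 alternatives. RTS0062096 had 34.0, 26.3 and 30.5 CPM in PanCK deep dermis, against 23.1, 98.4 and 40.3 CPM in PanCK epidermis, and did not pass at −1.66 ± 0.62 (edgeR quasi-likelihood, adjusted p = 0.0700).

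The second question was how the probes changed within PanCK deep dermis. Between 6 h and 24 h, 2 times that the choice did not use, they moved down together. Of the 83 that passed the filter, 49 were lower at 24 h than at 6 h and 0 were higher (edgeR quasi-likelihood F test, Benjamini-Hochberg), and 28 of these were at least 4-fold lower. Over all 1898 probes tested, 6.95% were lower and 3.21% higher. The 4-fold count was made only over the deep dermal probes. The median log2 fold change was −1.62 (−3.49 to 0.05), against 0.00 over all tested, and 82 of the 83 values were below 0. The filter was applied over the sums of 0, 6 and 24 h, so a probe could pass it by its 0 h level alone. Fitted without the filter, 38 of the 107 were lower and 0 were higher, with 100 of the 107 below 0 and 0.575% of all probes called lower and 0.362% higher.

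Counted by mouse, 73 of the 107 were lower at 24 h than at 6 h in all 3 mice and 0 were higher in all 3. Among the 1898 tested probes, 18.4% were lower in all 3 mice. The count depended on mouse 210, the deepest, since 2 probes were called without it, 52 without mouse 208 and 49 without mouse 219, although the median without mouse 210 was still −1.47. The limma fit on segment means called 9.

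RTS0074236 had the largest fall among the 83, at 51.0, 26.3 and 20.3 CPM at 24 h, against 525, 296 and 180 CPM at 6 h. Its log2 fold change was −3.49 ± 0.44 (edgeR quasi-likelihood, adjusted p = 0.000171). At 0 h it had 290, 403 and 167 CPM, which overlapped the 6 h values. RTS0065967 had 204, 110 and 264 CPM at 24 h, against 1284, 486 and 1417 CPM at 6 h, and was lower by −2.47 ± 0.30 (edgeR quasi-likelihood, adjusted p = 0.000159). Both were lower in every mouse without overlap, and both calls held under all 11 alternatives.

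The other 3 of the 4 most abundant probes fell as well. RTS0066290 had 153, 73.6 and 91.4 CPM at 24 h, against 628, 463 and 605 CPM at 6 h, a log2 fold change of −2.57 ± 0.34 (edgeR quasi-likelihood, adjusted p = 0.000335). RTS0076045 had 987, 263 and 853 CPM at 24 h, against 2000, 1825 and 2447 CPM at 6 h, a change of −1.84 ± 0.32 (edgeR quasi-likelihood, adjusted p = 0.00200). RTS0071365 had 765, 63.1 and 81.3 CPM at 24 h, against 2423, 1202 and 361 CPM at 6 h, a change of −2.57 ± 0.51 (edgeR quasi-likelihood, adjusted p = 0.00455). For this last probe mouse 208 stood far above the others at 24 h, and the groups overlapped.

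The smallest changes belonged to 2 probes that did not pass. RTS0074148 had 1021, 116 and 691 CPM at 24 h, against 234, 546 and 477 CPM at 6 h. It was higher at 24 h in mice 208 and 219 and lower in mouse 210, and its log2 fold change was −0.04 ± 0.50 (edgeR quasi-likelihood, adjusted p = 0.986). RTS0065292 was the one tested probe with a value above 0, at 136, 73.6 and 50.8 CPM at 24 h, against 58.4, 68.3 and 90.2 CPM at 6 h. Its change of 0.05 ± 0.41 did not pass (edgeR quasi-likelihood, adjusted p = 0.977).

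Against 0 h the fall in PanCK deep dermis can only be described, since the probes were chosen for being high at 0 h. At 6 h, 11 of the 83 tested were lower and 0 higher by the same rule, while 1.9% of all tested probes were lower and 1.63% higher. The median log2 fold change was −0.63, and 61 of the 107 were lower in all 3 mice while 3 were higher, against 18.2% and 23.3% of the 1898 tested probes. The number of calls at 6 h was 18 without mouse 208, 3 without mouse 210 and 2 without mouse 219. At 24 h, 75 of the 83 were lower and 0 higher, while 14.6% of all tested probes were lower and 7.96% higher. The median was −2.26, and 99 of the 107 were lower in all 3 mice, against 21.0% of the tested probes. Of the 75, 57 were at least 4-fold lower, a count made only over the deep dermal probes. Without mouse 210 the number of lower calls at 24 h was 37, and limma on segment means gave 43. The 24 probes that did not pass the filter had mean levels of 100.2 to 246 CPM at 0 h, 11.9 to 86.6 CPM at 6 h and 8.76 to 83.6 CPM at 24 h.

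Whether the layers drew together between 6 h and 24 h was tested as an interaction, with the biopsy as a block. Of 101 deep dermal probes tested, 15 had a lower deep dermis over epidermis difference at 24 h than at 6 h and 0 had a higher one (edgeR quasi-likelihood F test, Benjamini-Hochberg). Among all 4268 probes tested, 1.19% were lower and 2.62% higher. The median interaction was −1.48 over the 101, against −0.04 over all tested, and 97 of the 101 were below 0. RTS0071365 had an interaction of −3.19 ± 0.64 (edgeR quasi-likelihood, adjusted p = 0.00181) and RTS0074236 one of −3.61 ± 0.68 (edgeR quasi-likelihood, adjusted p = 0.00097). For RTS0074148 it was −0.14 ± 0.50 (edgeR quasi-likelihood, adjusted p = 0.937). No probe of the 107 was called without mouse 210 (26 at an unadjusted p under 0.05), 6 without mouse 208 and 12 without mouse 219, and limma on segment means called 4. The unadjusted count was not made over all probes.

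Few of these probes were called in PanCK epidermis over the same interval. Of 58 tested there, 1 was higher and 2 were lower at 24 h than at 6 h, against 1.04% and 4.2% of all 6076 probes tested (edgeR quasi-likelihood F test, Benjamini-Hochberg). The median log2 fold change was −0.09. RTS0073625, named after its values were seen, was the one that rose, with 80.8, 71.6 and 70.5 CPM at 24 h, against 34.6, 10.4 and 17.5 CPM at 6 h, a log2 fold change of 1.90 ± 0.54 (edgeR quasi-likelihood, adjusted p = 0.0369). That call was lost under 6 of 10 alternatives, among them the fit without the filter (1.59, edgeR quasi-likelihood, adjusted p = 0.119), in which 0 of the 107 were higher and 3 lower, against 0.228% and 1.63% of all probes. In PanCK deep dermis that probe had 17.0, 21.0 and 30.5 CPM at 24 h, against 102, 37.9 and 25.8 CPM at 6 h. RTS0065967 fell in PanCK epidermis as it did in PanCK deep dermis, with 185, 224 and 90.6 CPM at 24 h, against 613, 324 and 420 CPM at 6 h, a change of −1.32 ± 0.35 (edgeR quasi-likelihood, adjusted p = 0.0266). RTS0064438 fell as well, with 23.1, 17.9 and 30.2 CPM at 24 h, against 109, 110.4 and 46.6 CPM at 6 h, a change of −1.86 ± 0.53 (edgeR quasi-likelihood, adjusted p = 0.0387). For both, no 24 h value reached a 6 h value. The call on RTS0065967 was lost under 4 of 11 alternatives and that on RTS0064438 under 4 of 10. In number, these 3 calls became 0 without mouse 208, 0 without mouse 210 and 1 without mouse 219. Scaling to the scarce probes gave 12.

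CD45 epidermis was the one compartment from which the choice used nothing, so all its times can be compared. Calls on the deep dermal probes at 24 h went both ways there, but rises were about as frequent as over all tested probes. At 24 h against 0 h, 10 of the 18 tested fell and 4 rose (edgeR quasi-likelihood F test, Benjamini-Hochberg), but changes were common in this compartment, with 26.9% of all 907 tested probes lower and 25.1% higher. The median log2 fold change was −1.29, against −0.21 over all tested. Fitted without the filter, 11 of the 107 were lower and 0 higher, against 2.05% and 0.515% of all probes. At 24 h against 6 h, 4 of the 18 rose and 4 fell, close to the 21.2% and 19.6% of all tested. Without the filter no rise was left, with 0 of the 107 higher and 3 lower, against 0.178% and 0.743% of all probes. At 6 h against 0 h none was called either way, and over all tested probes 0.551% were higher and 1.43% lower. At an unadjusted p under 0.05 there were 7, a count not made over all probes. Without mouse 210 the 24 h counts against 0 h were 3 lower and 2 higher, and without mouse 219, 9 lower and 2 higher.

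RTS0064427 fell most in CD45 epidermis. It had 38.6, 121 and 45.8 CPM at 24 h, against 581, 1400 and 529 CPM at 0 h, a log2 fold change of −2.92 ± 0.39 (edgeR quasi-likelihood, adjusted p = 1.16e-05). At 0 h this probe had 702, 761 and 167 CPM in PanCK deep dermis, so its mean was higher in the epidermal CD45 segments, though not in mouse 208. RTS0065115 had 38.6, 37.9 and 76.3 CPM at 24 h, against 290, 679 and 482 CPM at 0 h, and was lower by −2.91 ± 0.43 (edgeR quasi-likelihood, adjusted p = 3.11e-05). Neither probe's groups overlapped, and both calls held under all 11 alternatives.

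RTS0071365 went the other way in CD45 epidermis. It had 283, 194 and 168 CPM in CD45 epidermis at 24 h, against 33.2, 82.6 and 58.8 CPM at 0 h, a log2 fold change of 2.35 ± 0.40 (edgeR quasi-likelihood, adjusted p = 0.000111). The call was lost without the filter, at 1.54 (edgeR quasi-likelihood, adjusted p = 0.089), and held under the other 10 of 11 alternatives. In PanCK epidermis it had 139, 125 and 131 CPM at 24 h, against 49.9, 76.1 and 90.9 CPM at 0 h. Its PanCK epidermis values at 0 h were among those that chose the probe, so they are given as a description. In PanCK deep dermis it had 765, 63.1 and 81.3 CPM at 24 h, above PanCK epidermis only in mouse 208. The 24 h means were 303 CPM in PanCK deep dermis and 132 CPM in PanCK epidermis. The fitted difference between these layers at 24 h was −0.06 ± 0.57 (edgeR quasi-likelihood, adjusted p = 0.951). RTS0074148 had 167, 111 and 137 CPM in CD45 epidermis at 24 h, against 91.3, 50.5 and 47.1 CPM at 0 h, a log2 fold change of 1.68 ± 0.40 (edgeR quasi-likelihood, adjusted p = 0.00196). That call was lost under 4 of the 10 alternatives that could be fitted for it.

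The deep leukocyte compartments showed no call between 24 h and 6 h. Of 26 deep dermal probes tested in CD45 deep dermis, 0 were called (edgeR quasi-likelihood F test, Benjamini-Hochberg) and 9 had an unadjusted p under 0.05. In CD45 adipose, 26 were likewise tested, 0 were called by edgeR and 8 had an unadjusted p under 0.05. Of all tested probes, 0.16% were called higher and 0.0% lower in CD45 deep dermis, and 0.0% higher and 0.119% lower in CD45 adipose. The unadjusted counts were not made over all probes. Scaling to the scarce probes gave 6 calls in CD45 deep dermis. Against 0 h these compartments can only be described, since the choice used both. In CD45 deep dermis, 32 of the 107 were lower at 24 h than at 0 h in all 3 mice and 3 were higher, against 13.3% and 22.9% of the 624 tested probes. In CD45 adipose, 19 were lower and 9 higher, against 18.2% and 11.7% of the 839 tested.

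The compartment of the highest level is a description too, since the probes were chosen for being high in PanCK deep dermis at 0 h. PanCK deep dermis held the highest mean of 83 probes at 0 h, 63 at 6 h and 26 at 24 h. CD45 adipose held it for 16, 31 and 43 probes at the same times, and PanCK epidermis for 0, 1 and 14. Of the 1898 probes tested over time in PanCK deep dermis, 34.3%, 42.7% and 59.7% had their highest mean there at 0, 6 and 24 h. CD45 adipose held it for 20.3%, 18.9% and 17.2% of them, and PanCK epidermis for 28.1%, 14.1% and 5.90%. The 83 probes that were highest in PanCK deep dermis at 0 h held 2.57% ± 0.23 of its counts at 0 h, 1.61% ± 0.30 at 6 h, then 0.629% ± 0.21 at 24 h (SD, n = 3 each). The other 24 held 0.617% ± 0.26, 0.549% ± 0.29 and 0.184% ± 0.050 there. In CD45 adipose these 24 held 1.40% ± 0.17 at 0 h (n = 3), 1.02 and 2.25% in the 2 mice of 6 h, and 1.03% ± 0.57 at 24 h (n = 3), with overlapping values. At 24 h, 21 of the 32 tested deep dermal probes were lower in PanCK deep dermis than in CD45 adipose and 2 were higher (edgeR quasi-likelihood F test, Benjamini-Hochberg), against 17.4% and 10.9% of all probes tested. Of the 32, 16 belonged to the 24 probes that were already highest in a CD45 compartment at 0 h, and these gave 15 of the 21 lower calls. Without the filter, 17 of the 107 were lower and 2 higher, against 1.45% and 1.16% of all probes, and 14 of the 17 were among those 24. The 2 higher ones were RTS0076045 and RTS0065967. At 6 h, 14 of the 58 tested were lower and 14 higher, against 15.9% and 11.3% of all probes tested. Of these 58, 21 were already highest in a CD45 compartment at 0 h. Those 21 gave 13 of the lower calls and 1 of the higher ones. The part of cell composition in these shifts was not tested, since no marker genes could be read.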

How the data were processed

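The values the authors deposited are whole-number counts for each probe in each segment; per the file headers they come from GeoMx NGS Pipeline 2.3.3.10. No normalization is recorded. In the median a segment's total was 1.13% of its aligned reads, so counts were taken as reads left once duplicates were removed, which the headers do not say in words. The sources used here do not give the probe panel, the aligner or the genome build.

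Counts of 85 segments were summed per mouse, compartment and time (44 sums). The mouse was the replicate. Fits were made in R 4.3.3 with edgeR 4.0.16 and, for 1 alternative, limma 3.58.1. Sums were scaled by TMM, low probes were filtered by filterByExpr (minimum count 10), the mouse was a block, and the quasi-likelihood F test was adjusted by Benjamini-Hochberg over all tested probes, with 0.05 as the threshold. Layers were compared in 1 fit per time over the 5 compartments, and times in 1 fit per compartment. The interaction of layer and time had the biopsy as a block. Standard errors (SE) follow from each fold change and its F value. The fits were tested on simulated counts. The mouse number in the labels pairs the samples, and whether biopsies were serial is not stated in more words. For the same mouse at different times, deviations from group means had a median correlation over probes of 0.126 (−0.011 to 0.174) in PanCK deep dermis and 0.011 (−0.016 to 0.04) in PanCK epidermis.

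Named probes were the 4 most abundant at 0 h, the 2 nearest the 3-fold limit on each side, and in 3 comparisons (deep dermis over epidermis at 24 h, PanCK deep dermis at 24 h against 6 h, CD45 epidermis at 24 h against 0 h) the 2 higher and 2 lower with the smallest p. The probes, lists and tests were chosen with earlier results of these data known. Alternatives were DESeq2 size factors, upper quartile scaling, scaling to the 5000 probes with the least signal in deep dermis and adipose, no filter, DESeq2 1.42.0 with its own test, limma on log2(CPM + 1) averaged over segments, omission of 1 segment under 4756 counts, no block, and omission of each mouse. Contrasts with CD45 compartments, counts by mouse and groups by 0 h level or highest compartment were added after seeing the data. A no template control was not used here.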

Additional observations from a re-analysis of the deposited data

Results flagged for a closer look

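The difference between PanCK deep dermis and PanCK epidermis was itself different at the 2 later times for 15 of the 101 deep dermal probes tested. These had a lower difference at 24 h than at 6 h in a test of the interaction (edgeR quasi-likelihood F test, Benjamini-Hochberg). No deep dermal probe was called with a higher one. Among all 4268 probes tested, 1.19% were lower and 2.62% higher. Without mouse 210 no deep dermal probe was called, and without the filter 8 of the 107 were. Shares over all probes are not given for these fits. The direction is that of 97 of the 101 probes tested. The share of counts on the 107 probes was also examined segment by segment for single extreme segments in 13 groups of 4 to 8 segments, and none stood out by Dixon's test, which flags about 1 group in 20 by chance.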

How the results depend on the processing

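The median fall in PanCK deep dermis at 24 h against 6 h and the median layer difference at 6 h kept their direction under every alternative run, while counts of calls did not hold. The counts below are of the deep dermal probes alone, without shares over all probes beside them. With 3 mice and median counts per probe of 4 to 8 at 24 h, depth limits single probes. Scaling to scarce probes gave 15 higher and 0 lower at 24 h between the layers (median 1.28), a median of 2.07 at 6 h, 1 higher in CD45 epidermis (median −2.28), 12 calls in PanCK epidermis and 6 in CD45 deep dermis at 24 h against 6 h, and an interaction count of 9. No filter gave 2 higher and 0 lower between the layers at 24 h (median 0.35), 0 higher in CD45 epidermis (median −0.47) and 8 for the interaction. Limma on segment means gave 2 higher between the layers at 6 h, 1 higher and 0 lower at 24 h (median 0.40), 9 lower in PanCK deep dermis at 24 h against 6 h (median −2.08), 0 lower at 6 h and 43 lower at 24 h against 0 h, 1 higher in CD45 epidermis (median −1.59), 0 calls in PanCK epidermis and 4 for the interaction. For PanCK deep dermis at 6 h against 0 h, upper quartile scaling gave 6 and DESeq2's test 5. DESeq2's test called 0 lower between the layers at 24 h, as did the probes chosen at 4-fold. With no replicate block, that count was 0, the count at 6 h against 0 h was 7 and the interaction count 9. Omitting the block changed no other count of calls by over 1.5 times.

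With each mouse left out in turn, calls ranged from 10 to 43 higher between the layers at 6 h, 0 to 1 higher and 0 lower at 24 h, 2 to 52 lower at 24 h against 6 h in PanCK deep dermis, 2 to 18 and 37 to 86 lower at 6 h and 24 h against 0 h, 3 to 10 lower and 2 to 5 higher in CD45 epidermis, 0 to 1 in PanCK epidermis, and 0 to 12 for the interaction. The medians ranged over 1.36 to 1.42 between the layers at 6 h, −0.11 to 0.03 at 24 h, −1.64 to −1.47 at 24 h against 6 h, and −1.16 to −0.66 in CD45 epidermis. The cause of these shifts was not tested. RTS0065292 turned to −0.98 with limma and to −0.28 without mouse 208 at 24 h against 6 h, with a range of −0.28 to 0.30 over the mice left out. The rule itself gave 171 probes at 2-fold, 63 at 4-fold, 202 at 50 CPM and 50 at 200 CPM in place of 107.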

Other observations

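Most probes chosen on 2 mice at 0 h were above epidermis in the mouse left out, and fewer were at least 3 times above. The same share over all probes was not counted, so these numbers only describe the choice. With mouse 208 left out 121 probes were chosen, of which 116 were above epidermis in mouse 208 and 66 at least 3 times above, with a median ratio of 3.27. With mouse 210 left out 119 were chosen, 113 were above epidermis in mouse 210 and 69 at least 3 times above, with a median ratio of 3.79. With mouse 219 left out 127 were chosen, 111 were above epidermis in mouse 219 and 57 at least 3 times above, with a median ratio of 2.86.

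The limits of the choice, applied to later sums, selected other probes. At 6 h, 70 probes met them, of which 30 were among the 107. The other 40 had a median of 157 CPM in PanCK deep dermis at 6 h, against 109.6 CPM at 0 h. At 24 h, 191 probes met them and 0 of these were among the 107. Those 191 had a median of 217 CPM in PanCK deep dermis at 24 h, against 120 CPM at 0 h. These sets were chosen by their values and were not tested.

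Among the 107, grouped by the 0 h level that was used to choose them, the most abundant probes had the lowest median ratio of 24 h to 6 h. The 14 probes with 500 CPM or more at 0 h had a median 24 h to 6 h ratio of 0.304 in PanCK deep dermis, the 36 with 200 to 500 CPM one of 0.373, and the 57 with 100 to 200 CPM one of 0.428. In the 14 the median level there fell from 429 CPM at 6 h to 142 CPM at 24 h. It fell from 175 to 59.1 CPM in the 36, and from 86.6 to 39.0 CPM in the 57. The scarce probes used for scaling averaged 20.02 CPM in PanCK deep dermis at 24 h. The 57 thus lay nearest to that level, and whether this limited how far their ratio could fall was not tested. The mean was lower at 24 h than at 6 h in 13 of the 14, 35 of the 36 and 49 of the 57. Of the 14 most abundant, 9 still reached 100 CPM at 24 h, against 3 of the 36 and 2 of the 57.

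RTS0066938, named after its values were seen, had 669, 559 and 550 CPM in CD45 epidermis at 24 h, against 67.1, 395 and 227 CPM at 6 h, and 241, 661 and 271 CPM at 0 h. It was the deep dermal probe with the smallest p for a rise in that compartment at 24 h against 6 h, at 1.97 ± 0.38 (edgeR quasi-likelihood, adjusted p = 0.000533). The call was lost without the filter, at 1.41 (edgeR quasi-likelihood, adjusted p = 0.22), and held under the other 10 of 11 alternatives. In PanCK deep dermis it had 289, 547 and 254 CPM at 24 h, against 759, 550 and 605 CPM at 6 h.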
